A study of Mus musculus with 4 samples.

Results

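The order of transcript signals in resting macrophages was described on 2 of the 4 arrays of the study, those of untreated cells. Members were all probes other than controls, ranked within each array by processed signal, with repeated spots of a probe averaged. Each array carried 56605 such probes, and 40458 of them could be given 1 of 25107 gene names. The cells were bone marrow-derived macrophages of male C57BL/6J mice, grown in macrophage colony-stimulating factor (M-CSF), either Batf2-/- and untreated or wild type and untreated. Batf2 encodes a leucine zipper factor of the AP-1 family. The other 2 arrays held the same genotypes after 8 h of R848 at 100 ng/ml, a small molecule that activates TLR7 in mouse cells, and served here only to see how stable the order was. Each group was 1 array, so no value has a replicate check and no test was possible. Both arrays are given to show which places hold on each, not to compare genotypes. The number of mice behind an array was not given in the sources used here.

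Macrophages take up and degrade particles, dying cells and microbes, and are known for a large lysosomal system of cathepsins, glycosidases and a proton pump that acidifies the compartment. They sense their surroundings through M-CSF receptors, integrins, Fc receptors, scavenger receptors and Toll-like receptors, and they secrete lysozyme, apolipoprotein E, complement C1q and, after activation, inflammatory cytokines. Their identity is tied to factors such as PU.1 (the product of Spi1) and the C/EBP family.

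A gene counted as measured when a probe of it was well above background on both arrays, which held for 18846 of the 25107 named genes, or 75.1%. It was placed at its brightest such probe, and its percentile is its position among these 18846 genes. Where 1 percentile is given, it is the lower of the values on the knockout and the wild-type array. By this measure 9.35% of the measured genes lay in the brightest 10% on both arrays, which began at a signal of 3059 on the knockout array and 3155 on the wild-type array. The median gene had a signal of 226.8 on the knockout array and 241.4 on the wild-type array. The order differed little between the arrays: a gene's percentiles were a median of 2.44 points apart, and 240 genes (1.27%) were more than 20 points apart. Across genes, which are not independent replicates, log2 signals of both arrays correlated at r = 0.983, on 1 slide and with the same probes.

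Most of the brightest probes belonged to genes outside the lists of macrophage genes used here. The first place on the knockout array went to Pak4, a protein kinase, with a signal of 252186 on the knockout array and 226969 on the wild-type array. Dennd4a, an activator of Rab GTPases, led the wild-type array with 251762 on the knockout array and 236114 on the wild-type array. Timmdc1, an assembly factor of respiratory complex I, had 236406 on the knockout array and 228651 on the wild-type array. Sgsh, a lysosomal sulfatase, Sp110, a nuclear body protein, Cyp2u1, a cytochrome P450, Arl6ip6, Ubtf, a factor of ribosomal RNA transcription, Hs3st2, a heparan sulfate sulfotransferase, and Ms4a4c filled the next places. Among the 25 brightest genes were also Hemgn, known from red cell precursors, Slc10a1, the bile acid transporter of hepatocytes, Skint7, known from skin and thymus, and Eya1, a regulator of organ development. The remaining ones were Slc3a2, Zcchc9, Luc7l2, Itsn1, Spag7, Tmem239, Plekhg3, Nrp2, Pdp2, E130314K07Rik and Ung. The order was nearly the same on both arrays, which shared 96 of their 100 brightest probes. Rn18s, the 18S ribosomal RNA, took rank 51 on the knockout array and 59 on the wild-type array.

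Most of these bright probes were not matched by other probes of their own gene. Of the 100 probes ranked highest on both arrays, 73 belonged to a gene with another probe, and for 66 of them every other probe was at least 16-fold dimmer on both arrays. That is 90.4%, against 14.4% of the 10055 genes with 2 or more probes. The 100 probes were picked for high signal, which by itself widens the distance to other probes, so this contrast is partly built in. The median distance to the next probe of the gene was 10.43 (log2) on the knockout array and 10.26 on the wild-type array, against 1.78 and 1.77 over those 10055 genes on the same arrays. For 11 of the 73 probes, no other probe of the gene was well above background on both arrays. Hemgn had 206960 on the knockout array and 197719 on the wild-type array at its bright probe, and 2.5 and 2.7 at its other probe. Slc10a1 had 196317 on the knockout array and 193591 on the wild-type array at its bright probe, and 12.1 and 10.2 at its other probe. Sgsh had 234605 on the knockout array and 228142 on the wild-type array at its bright probe, and 170 and 185 at its other probe. For genes such as these the files therefore held a very high and a very low reading of the same gene, and signal rank at the brightest probe is not a transcript abundance. Whether the probes read different transcripts of a gene or hybridise unlike each other was not tested. A measure that moved with this pattern was the probe series: 97 of the 100 probes had an identifier of the series A_55, against 45.0% of all probes.

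**Figure D1:**
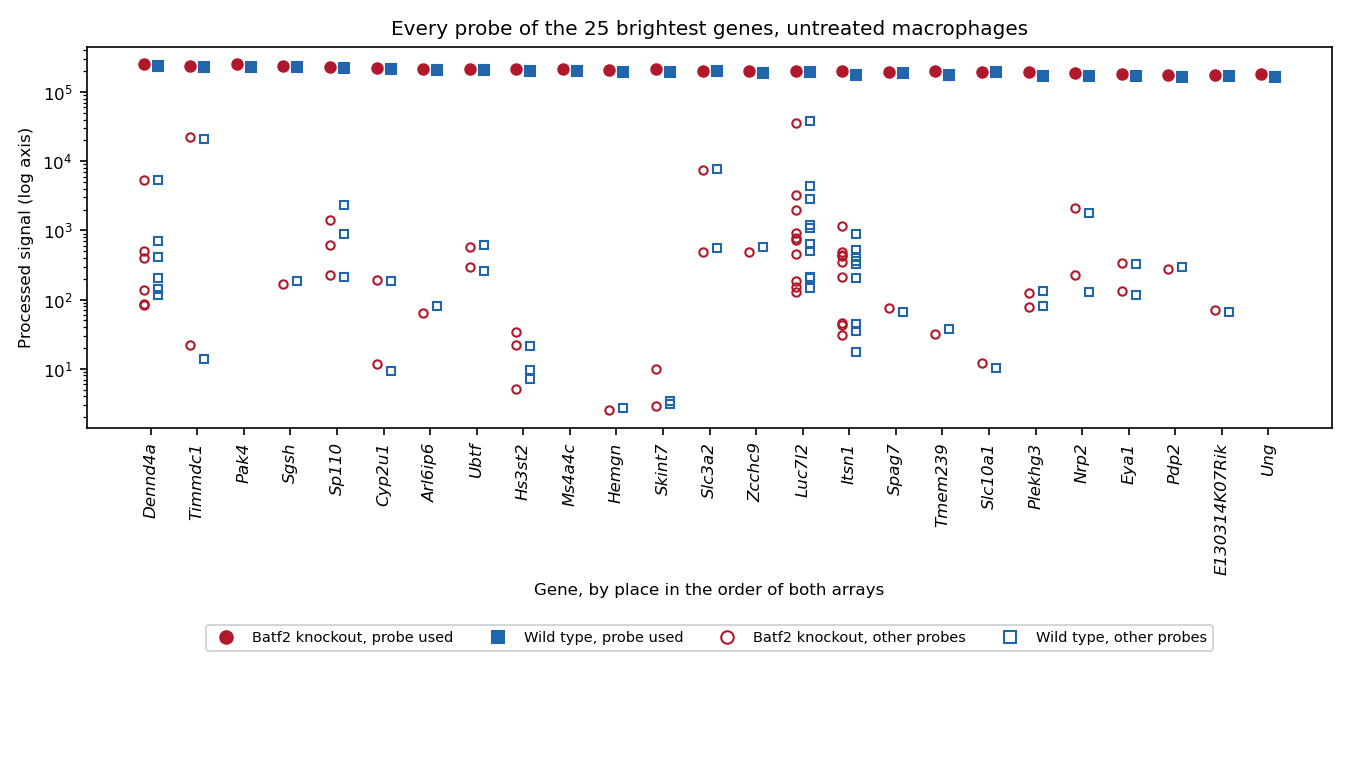
Processed signal (log axis) of every probe of the 25 genes with the highest order on both untreated arrays; circles are the knockout array, squares the wild-type array, filled marks the probe that placed the gene and open marks its other probes, including those not well above background. The filled marks lie between 164645 and 252186, while most other probes of the same genes lie far lower; Pak4, Ms4a4c and Ung have no other probe.

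The share of mismatched probes was lower further down the ranking. Part of this fall follows from the ranking itself. The bands were cut on the signal that forms the distance, and lower bands also held probes that were not the brightest of their gene. The share of probes at least 16-fold above every other probe of their gene was 90.4% at ranks 1 to 100, 78.1% at ranks 101 to 250, 50.8% at ranks 251 to 500 and 39.6% at ranks 501 to 1000. It was 26.8% at ranks 1001 to 2000 and 22.8% at ranks 2001 to 4000. Over all 7470 measured genes with several measured probes, 20.6% had probes at least 16-fold apart on both arrays and 17.6% had all probes within 2-fold. The pooled SD between measured probes of a gene was 2.06 (log2) on the knockout array and 2.04 on the wild-type array, while the SD between repeated spots of a probe was 0.075 and 0.079. Spot error was thus small beside the spread between probes. A pair of genes was called ordered only where their distance on both arrays was above 2 SD of a difference between such probes. The larger SD, that of the knockout array, was used for both arrays, which is 56.2-fold. The SD of the wild-type array would have given 54.3-fold.

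**Figure D2:**
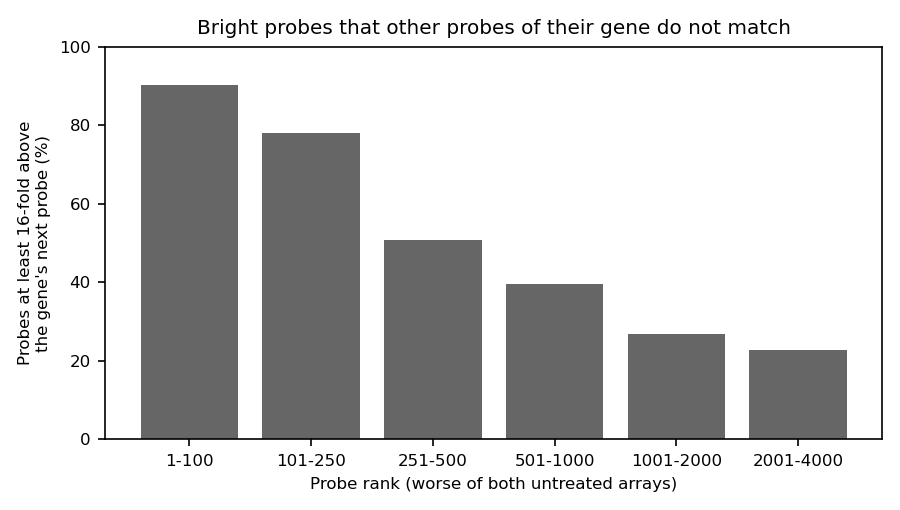
Bars give the percentage of probes, among those whose gene has another probe, that were at least 16-fold brighter than every other probe of the gene on both untreated arrays, by rank band (the worse rank of both arrays). The share falls from 90.4% at ranks 1 to 100 to 22.8% at ranks 2001 to 4000.

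Where probes of a gene were close to each other, the top of the order looked different. There were 1314 genes with at least 2 measured probes, all within 2-fold on both arrays, ranked here at their median probe. Fau, which encodes ribosomal protein S30 fused to a ubiquitin-like protein, led with 77336 on the knockout array and 77764 on the wild-type array. Ubb, which encodes polyubiquitin, followed with 41964 on the knockout array and 41384 on the wild-type array. Next came Rps16, Rpl23 and Rpl31 of the ribosome, Lgals3, the secreted lectin galectin-3, and Pgam1, a glycolytic enzyme. Rap1b, a GTPase of integrin signalling, Cst3, the secreted cathepsin inhibitor cystatin C, and Sgpl1, which cleaves sphingosine phosphate, were also among the first 10. Lgals3 had 35266 on the knockout array and 25892 on the wild-type array. Of the 100 brightest genes in this order, 20 encode ribosomal proteins, out of 21 ribosomal protein genes that could be ranked in it. Any of the gene lists used here held 39 of the 100, against 5.86% of the 1314 genes. In the order by brightest probe the lists held 5 of the 100 brightest genes, against 4.0% of the 18846 genes: Sgsh, Grn, Apoe, Tpt1, a translation-associated growth protein, and Nanog.

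Most genes of the protein synthesis machinery, the actin cytoskeleton and glycolysis lay high at their brightest probe. Of 86 measured ribosomal protein genes, 77 (89.5%) were in the brightest 10%, and the median percentile was 95.9 on the knockout array and 96.6 on the wild-type array. The exceptions at the bottom were Rpl10l and Rpl39l, testis-expressed copies of ribosomal protein genes, at percentiles 4.9 and 5.3. The 16 translation factors had a median percentile of 95.5 and 13 in the brightest 10%, led by Tpt1 with 95753 on the knockout array and 102801 on the wild-type array, then Eef2, Eef1a1 and Eif1. The 25 genes of the actin cytoskeleton had a median percentile of 96.3 and 23 in the brightest 10%, led by Tmsb4x, which binds actin monomers, and Cfl1, which severs actin filaments. Of 14 glycolytic genes 11 were in the brightest 10%, led by Aldoa with 61691 on the knockout array and 62673 on the wild-type array, then Gapdh and Pkm. Both ferritin genes, Fth1 and Ftl1, which store iron, lay at percentiles 98.9 and 98.8. Genes of the respiratory chain and ATP synthase were lower, with 28 of 68 in the brightest 10% and a median percentile of 88.0. Of 11 genes of antigen presentation 6 were in the brightest 10%, led by H2-D1 with 46288 on the knockout array and 56649 on the wild-type array. Histone genes had 15 of 45 in the brightest 10%.

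Ribosomal protein genes are known for a run of pyrimidines at the start of their transcripts, through which their translation is controlled. RefSeq promoter windows (GRCm38.p6, 250 bases before to 50 after the annotated start) were held for 66 of the 88 listed ribosomal protein genes, in 78 windows. A C at the annotated start followed by 4 pyrimidines was found in 19.2% of these windows, against 2.5% of all 32851 windows, and in 0.0% of those of the 100 genes brightest by their brightest probe. Shown are 30 bases before and 20 from the start of the 5 ribosomal protein genes with that tract whose probes lay within 2-fold and were brightest, with the C and the 4 pyrimidines in capitals.
Fau (chr19:6057917-6057966, plus strand): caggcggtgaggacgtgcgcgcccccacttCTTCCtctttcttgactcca
Rpl35 (chr2:39005112-39005161, minus strand): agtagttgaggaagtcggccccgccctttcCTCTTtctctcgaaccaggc
Rps6 (chr4:86857348-86857397, minus strand): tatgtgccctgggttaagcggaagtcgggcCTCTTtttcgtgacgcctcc
Rpl15 (chr14:18270967-18271016, minus strand): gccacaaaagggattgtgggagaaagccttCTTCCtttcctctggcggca
Rpl14 (chr9:120571487-120571536, plus strand): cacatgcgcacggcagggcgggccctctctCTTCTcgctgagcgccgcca
The match is a description of the annotated start and shows no control of these genes in the cells measured.

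Receptors, transcription factors, lysosomal and secreted genes were taken from lists of 507 genes known in macrophages and neighbouring lineages. Of these, 504 had a probe and 472 were measured on both arrays, 10 on 1 array only and 22 on neither; Tmem55a, Tnfsf13 and Emr1, an older symbol of Adgre1, had no probe under that name. Lysosomal genes lay highest, with a median percentile of 89.8 on the knockout array and 89.5 on the wild-type array. Receptors and their adaptors followed with 78.1 on the knockout array and 82.0 on the wild-type array, secreted genes with 74.7 and 76.2, and transcription factors with 72.9 and 74.9 on the same arrays. Lysosomal genes kept the highest of the 4 medians under every alternative tried, but the order of the other 3 did not hold. Among genes with probes within 2-fold, the lysosomal median rested on 4 genes. Transcription factors had a median percentile above secreted genes without the filter on dim probes (78.6 against 69.9), in the deposited table (72.2 against 63.4) and with ontology classes (54.1 against 49.1). At the dimmest probe secreted genes lay above receptors (74.5 against 71.3). In the brightest 10% were 46.4% of the lysosomal genes, 29.5% of the receptors, 34.5% of the secreted genes and 14.3% of the transcription factors, against 9.35% of all measured genes. These lists were drawn up from genes known in macrophages. With classes taken from gene ontology terms, an alternative chosen after seeing the data, 24.2% of 265 lysosomal genes, 15.9% of 803 secreted genes, 10.0% of 100 receptors and 8.52% of 575 transcription factors lay in the brightest 10%. The shares of receptors and transcription factors were then close to that of all measured genes. Of the 472 measured members 224 had 1 measured probe, 39 had probes within 2-fold and 209 had probes further apart. Among genes with several measured probes, 23 of 51 lysosomal genes had probes at least 16-fold apart on both arrays. The same held for 16 of 69 receptors, 10 of 47 secreted genes and 20 of 81 transcription factors, against 20.6% of all such genes.

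**Figure D3:**
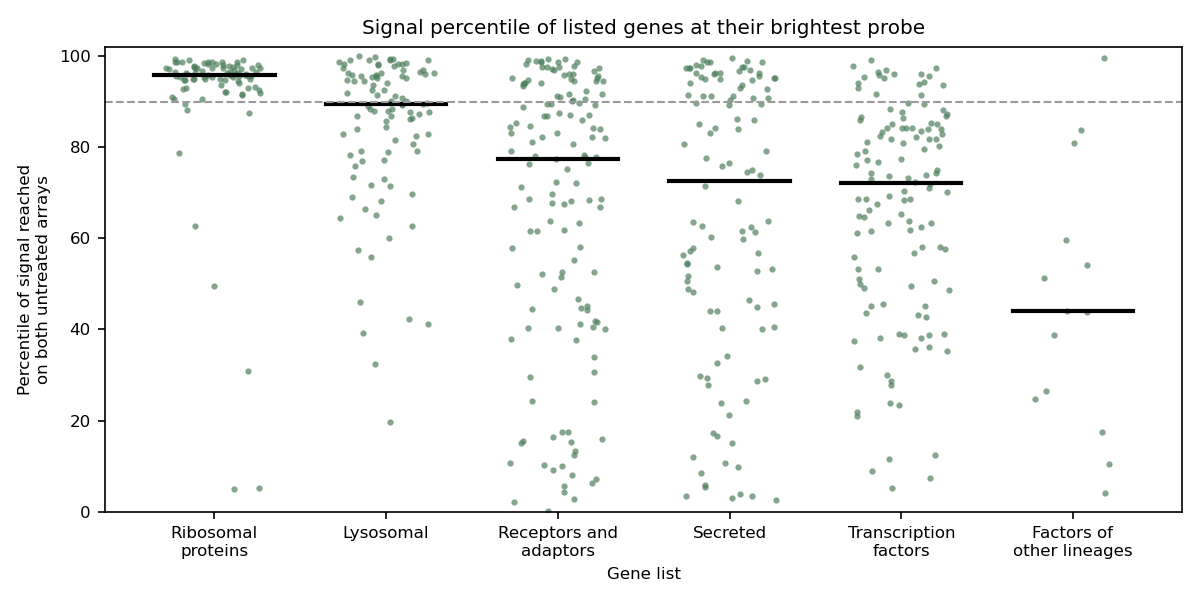
Each point is a measured gene at its brightest probe, placed by the lower of its percentiles on both untreated arrays; black bars are medians and the dashed line is the 90th percentile. Ribosomal proteins lie almost all above the line (77 of 86), lysosomal genes have their median (89.4) just below it, and the other lists spread over the whole range.

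Lysosomal genes were measured almost without exception, 97 of 99 with a probe. Of the proteases, Ctss, a cathepsin of antigen presentation, had 96782 on the knockout array and 90783 on the wild-type array. Ctsb, a cysteine cathepsin, had 68447 on the knockout array and 59234 on the wild-type array. Ctsd, an aspartic cathepsin, had 57881 on the knockout array and 51206 on the wild-type array. All 3 were read by 1 probe, so no other probe bears on their place. At the other end Ctsk, the collagen-degrading cathepsin of osteoclasts, had 117 on the knockout array and 51.5 on the wild-type array, and Ctse was well above background on neither. The distance between Ctss and Ctsk exceeded the spread between probes. No pair of neighbours in the order of lysosomal genes did, which is nearly fixed in advance in so long a list.

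Of the membrane proteins, Slc17a5, a sialic acid exporter, had 67500 on the knockout array and 68834 on the wild-type array, but its other probe had 270 and 268. Lamp1, a major glycoprotein of the lysosomal membrane, had 61171 on the knockout array and 52721 on the wild-type array, and its other probe still reached 15622 and 13397. Gpnmb, a membrane glycoprotein of phagocytes, had 34001 on the knockout array and 25008 on the wild-type array, and Laptm4b was dimmest of the group at percentile 46.0. Lamp1 was thus bright at each of its probes, and Slc17a5 was not.

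The proton pump was measured in full: all 17 listed subunits and partners lay between percentiles 68.3 and 98.8, 9 of them in the brightest 10%. Its first members were Atp6v1b2 with 41473 on the knockout array and 40260 on the wild-type array, Atp6v0c and Atp6v1a, and its last was Atp6v1c1 with 873 on the knockout array and 598 on the wild-type array. Among enzymes of lipids, phosphates and nucleic acids, Grn, the precursor of granulins, had 132776 on the knockout array and 125098 on the wild-type array, and 1333 and 1430 at its dimmest probe. Gm2a and Npc2, which hand over gangliosides and cholesterol, followed at percentiles 96.1 and 95.9, and Plbd1 came last at 39.3. Rnaset2b was well above background on 1 array only. Among glycosidases and sulfatases, the places after Sgsh went to Idua with 59831 on the knockout array and 58140 on the wild-type array and to Gla, both read by 1 probe.

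An E-box of the letters TCACGTGA, which reads the same on both strands and is known as a site of the MiT/TFE factors that regulate lysosomal genes, was found in 9 of the 91 RefSeq windows that 75 of the 100 listed lysosomal genes had. That is 9.9%, against 1.0% of all windows and 1.4% of those of measured genes. Among the other gene lists searched, the share ran from 0.0% (glycolysis and secreted genes) to 6.7% (actin cytoskeleton, 2 of 30 windows). Ctsd, Gla, Atp6v1a and Ctsa had the highest signal percentiles of the 9 genes, and 50 bases around their motif, in capitals, are shown.
Ctsd (chr7:142387898-142387947, minus strand): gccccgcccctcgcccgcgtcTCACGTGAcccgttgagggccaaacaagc
Gla (chrX:134601205-134601254, minus strand): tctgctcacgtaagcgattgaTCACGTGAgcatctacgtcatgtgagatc
Atp6v1a (chr16:44139363-44139412, minus strand): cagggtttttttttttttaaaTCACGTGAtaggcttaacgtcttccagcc
Ctsa (chr2:164833739-164833788, plus strand): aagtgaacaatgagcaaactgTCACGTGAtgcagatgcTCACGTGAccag
The first motif begins 99 bases before the annotated start in Ctsd, 228 in Gla, 132 in Atp6v1a and 13 in Ctsa. Ctsa holds it again 17 bases further on. Gla holds it again 33 bases further on, outside the stretch shown. The other 5 genes were Igf2r, Atp6v0d1, Atp6v0e, Cln3 and Mcoln1, between percentiles 82.8 and 96.3. Of the factors known to bind it, Tfe3 had 6457 on the knockout array and 5430 on the wild-type array at its brightest probe and 200 and 203 at its dimmest. Tfeb had 1707 on the knockout array and 1501 on the wild-type array, and Mitf had 1050 and 835 on the same arrays. No binding was measured here.

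Secreted genes spanned nearly the whole range, from Apoe to Il12b. Apoe, the lipid carrier apolipoprotein E, had 110601 on the knockout array and 99792 on the wild-type array, and its other probe 12846 and 12351. Pltp, which transfers phospholipids, followed with 20683 on the knockout array and 16910 on the wild-type array, and Lpl, lipoprotein lipase, with 17470 and 15781, though its 6 probes went down to 44.1 and 40.9. Cp, the copper carrier ceruloplasmin, was dimmest of this group at percentile 16.6. Lyz2, the lysozyme of macrophages, had 43998 on the knockout array and 35850 on the wild-type array, and C1qc, a chain of complement C1q, 10354 and 12166. Lyz1 stood next at percentile 95.7, but Lyz1 and Lyz2 are near copies and their probes may read both. C2, a complement protease, closed that group at percentile 9.8, and Cfd and Plat were well above background on neither array.

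Of the proteases, inhibitors and matrix proteins, Mmp12, the macrophage elastase, had 66603 on the knockout array and 41245 on the wild-type array. On the same arrays another probe of Mmp12 had 1397 and 517, and a further one 1253 and 1095. Lgals3 and Cst3 followed at percentiles 98.7 and 98.1 with probes within 2-fold. Adamts4 was dimmest at percentile 3.5, and Mmp3 and Retnla were not measured on either array. Lgals3 and Cst3 were bright by every probe, unlike Mmp12.

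Chemokines were spread over the range. Cxcl11, a ligand of CXCR3, had 51493 on the knockout array and 61492 on the wild-type array, and 10738 and 11434 at its other probe. Ccl9 had 21245 on the knockout array and 18585 on the wild-type array, and Ccl6 had 17319 and 16519. These lay at percentiles 97.5 to 99.1. Ccl5, Ccl4, Ccl3 and Ccl2 lay in between at 77.7, 68.1, 46.4 and 44.1, Ccl24 was last at 3.4, and Ccl12, Ccl22, Ccl7, Cxcl3 and Cxcl9 were well above background on neither array. Cxcl10 was well above background on 1 array only. Among acute phase proteins and alarmins S100a9, a calcium-binding protein of myeloid cells, had 49894 on the knockout array and 79686 on the wild-type array, Hmgb1 and Ngp came next, and Saa2 was last at percentile 5.8.

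Of the cytokines named here, Il1b and Il12b were dim and Tnf lay near the middle of the measured genes. Tnf had 306 on the knockout array and 362 on the wild-type array, with both probes within 2-fold, at percentile 56.3. Il1b had 64.6 on the knockout array and 90.2 on the wild-type array. Il12b, a subunit of interleukin-12 and interleukin-23, had 18.3 on the knockout array and 20.8 on the wild-type array. That was the lowest place of the secreted genes by the lower percentile, though Adamts4, with 19.9, was dimmer on the wild-type array. These low signals were still marked as well above background. Il6 and Il23a were well above background on 1 array only, and Areg, Csf2, Csf3, Ifna4, Ifnb1, Ifng and Il1a on neither. The brightest members of the group were Igf1, insulin-like growth factor 1, with 11367 on the knockout array and 8590 on the wild-type array, Pros1, a ligand of receptors that clear dying cells, with 5599 and 3768, and Mif with 3538 and 3468.

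**Figure D4:**
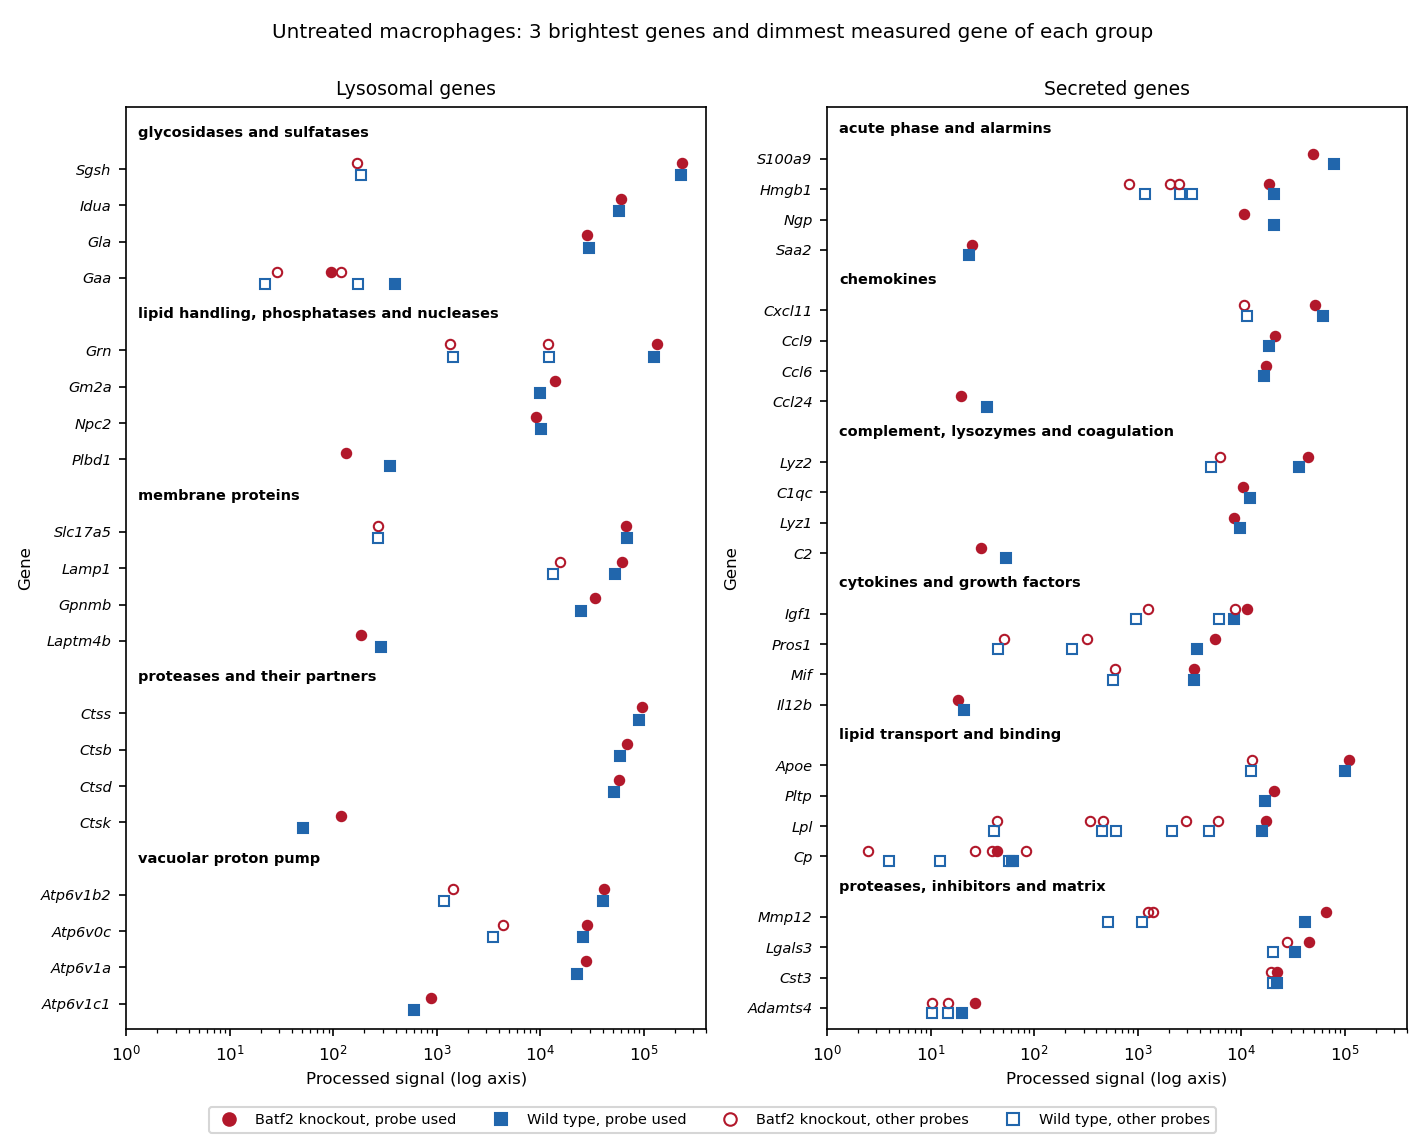
Processed signal (log axis) of the 3 brightest genes and the dimmest measured gene of each group of lysosomal (left) and secreted (right) genes; circles are the knockout array and squares the wild-type array, filled marks the probe used and open marks other probes of the gene. Ctss, Ctsb and Ctsd stand near the top with 1 probe each, Lgals3 and Cst3 with close probes, and Sgsh, Slc17a5 and Mmp12 have other probes far lower.

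Among receptors the first places went to Itgam, Pirb, Csf3r and Itgb2. Itgam, the integrin chain CD11b, had 84731 on the knockout array and 83378 on the wild-type array, and 816 and 899 at its other probe. Itgb2, its partner chain CD18, had 55057 on the knockout array and 49208 on the wild-type array at its only measured probe. Adgre1, the macrophage antigen F4/80, had 19486 on the knockout array and 17530 on the wild-type array. The chains of the same integrin thus both lay at percentile 99.0 or above at their brightest probes. By the lower percentile Pecam1 was dimmest of the adhesion receptors at 17.4, its place on the knockout array. Pecam1 had 45.5 on the knockout array but 151.7 on the wild-type array, so its place cannot be given from both. Itgad was well above background on 1 array only.

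Of the growth factor and cytokine receptors, Csf3r, the receptor of granulocyte colony-stimulating factor, had 64394 on the knockout array and 62107 on the wild-type array. Ifnar1, a chain of the type I interferon receptor, had 35450 on the knockout array and 38996 on the wild-type array, but 375 on both arrays at its dimmest probe. Csf1r, the M-CSF receptor, had 19394 on the knockout array and 16941 on the wild-type array, and 6906 and 6961 at its other probe. Csf1r was bright at each of its probes, at a place below Csf3r that the spread between probes does not separate from it. Il18r1 was the dimmest receptor measured on the knockout array, with 13.1 at percentile 0.2. On the wild-type array it had 29.4, and Adora2b (21.2), Tlr11 (25.4) and Fcer1a (28.8) were among those dimmer. Il1r1 and Il1r2 were well above background on 1 array only.

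Adaptors and Fc receptors were led by the signalling chains Tyrobp and Fcer1g. Tyrobp, also called DAP12, had 50113 on the knockout array and 47029 on the wild-type array, and Fcer1g, the common Fc receptor gamma chain, 19964 and 20318. Fcgr4 followed at percentile 91.6, and Fcer1a, an IgE receptor chain of mast cells and basophils, was last at 6.2. Of the clearance and paired receptors, Pirb, an inhibitory receptor from a family of near copies, had 66065 on the knockout array and 71641 on the wild-type array, but 280 and 397 at its dimmest probe. Trem1 had 31156 on the knockout array and 33606 on the wild-type array, but 12.7 and 12 at a probe not well above background on both. Sirpa had 22534 on the knockout array and 17894 on the wild-type array, but 598 and 520 at its other probe. Trem2, a lipid receptor that signals through Tyrobp, lay next to Sirpa at percentile 97.7. Adora2b was dimmest at 4.4. P2ry12 and Timd4, known from other macrophage populations, were well above background on neither array, and Tyro3 on 1.

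Chemoattractant receptors were led by C3ar1, the receptor of complement C3a, with 29896 on the knockout array and 24325 on the wild-type array. Cxcr4 and C5ar1 followed at percentiles 96.1 and 94.5, Ccr7 was last at 8.0, and Ackr3 was not measured on either array. Scavenger receptors were led by Colec12 with 31065 on the knockout array and 33881 on the wild-type array and Cd36, a receptor of oxidised lipoproteins, with 21802 and 13208. Lrp1 followed at percentile 89.4. Cd163 was last at 9.1 by the lower percentile, that of the knockout array. Cd163 had 29.4 on the knockout array but 157.6 on the wild-type array, so its place cannot be given from both. Of the C-type lectin receptors, Clec4d, Clec12a and Clec7a, the receptor dectin-1, lay at percentiles 94.6 to 96.8, and Clec4e at 2.8. Clec4a2 and Cd209b were well above background on 1 array only. The letters GAGGAAGT on either strand, of the kind PU.1 binds, were in 9.5% of the 126 RefSeq windows of receptor genes and 8.4% of the 107 windows of secreted genes, against 3.2% of all windows, 5.5% of those of lysosomal genes and 1.2% of those of transcription factors. They were also in 2 of the 17 windows of translation factors (11.8%), so the higher shares were not particular to receptors and secreted genes.

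All 12 Toll-like receptor genes were measured, and they were spread widely. Tlr8 had 11405 on the knockout array and 7471 on the wild-type array at its brightest probe, but 147 and 121 at the dimmest of 4. Tlr9, the receptor of CpG DNA, had 3182 on the knockout array and 3248 on the wild-type array. Tlr13, a receptor of bacterial ribosomal RNA, had 2349 on the knockout array and 2198 on the wild-type array with both probes within 2-fold, and Tlr4, the receptor of lipopolysaccharide, 2476 and 2212. Tlr7, the receptor of R848, lay in the middle with 516 on the knockout array and 460 on the wild-type array, and 245 and 183 at the dimmest of its 3 probes. Tlr1, Tlr2 and Tlr3 were at percentiles 49.8, 40.5 and 34.0. Tlr5, Tlr6, Tlr12 and Tlr11 were at 15.9, 15.6, 15.0 and 7.1. The value of Tlr12 was that of the knockout array. Tlr12 lay higher on the wild-type array, so its place cannot be given from both. None of the neighbours in this order stood further apart than the spread between probes.

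Transcription factors were lower, and the place of several rested on 1 of their probes. Junb, an AP-1 factor, had 54429 on the knockout array and 51552 on the wild-type array, but 49.7 and 46.3 at its dimmest probe. Atf4, a factor of the amino acid response, had 15882 on the knockout array and 17698 on the wild-type array, and Jund, another AP-1 factor, 16070 and 13351. Atf5 was the brightest factor with probes within 2-fold, 12944 on the knockout array and 10093 on the wild-type array at the brighter one. The lowest measured place of this group went to Batf2 on the knockout array and to Batf3 on the wild-type array. Batf3 had 35.9 on the knockout array and 33.0 on the wild-type array. Batf2 had 26.7 on the knockout array and 34.1 on the wild-type array. Fosl1 was well above background on neither array. The lower percentile of Batf2, 7.4, was that of the knockout array, whose cells were Batf2-/-. Its probe was marked well above background on that array too.

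Of the lineage factors, Cebpa, which directs myeloid commitment, had 13175 on the knockout array and 9680 on the wild-type array. Zfp36, an RNA-binding zinc finger protein kept in this list, had 8457 on the knockout array and 8631 on the wild-type array, and Zeb2 8670 and 8280. Cebpb, a factor of macrophage activation, had 8443 on the knockout array and 8054 on the wild-type array. Spi1 had 1272 on the knockout array and 1342 on the wild-type array, and Irf8, a partner of PU.1 in myeloid cells, 1268 and 1334, but 37.2 and 36.9 at its other probe. Spi1 thus lay at percentile 81.1, below Cebpa and Cebpb by less than the spread between probes. Spib, a relative of PU.1, was dimmest at 21.8.

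In the other families Stat3 led the NF-kB, IRF and STAT factors with 5594 on the knockout array and 5841 on the wild-type array, followed by Irf5 and Stat5a at percentiles 89.8 and 86.7. Rela, an NF-kB subunit with probes within 2-fold, lay at 83.4, and Nfkb1, also with probes within 2-fold, at 38.2. Stat4 was last of these factors on each array, but at percentile 9.0 on the knockout array and 32.6 on the wild-type array. Ybx1, Usf2 and Tfe3 led the basic helix-loop-helix, hypoxia and stress factors at percentiles 97.8, 96.5 and 93.6, and Mlx was last at 5.1. Nuclear receptors had 0 of 18 genes in the brightest 10%, against 9.35% of all measured genes. In so short a list 0 is near that share. Rxra lay at percentile 86.8, Nr1h3, the sterol-sensing receptor LXR alpha, at 86.4, Nr1d2 at 82.9 and Esr1 at 12.5. Vdr was not measured on either array.

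**Figure D5:**
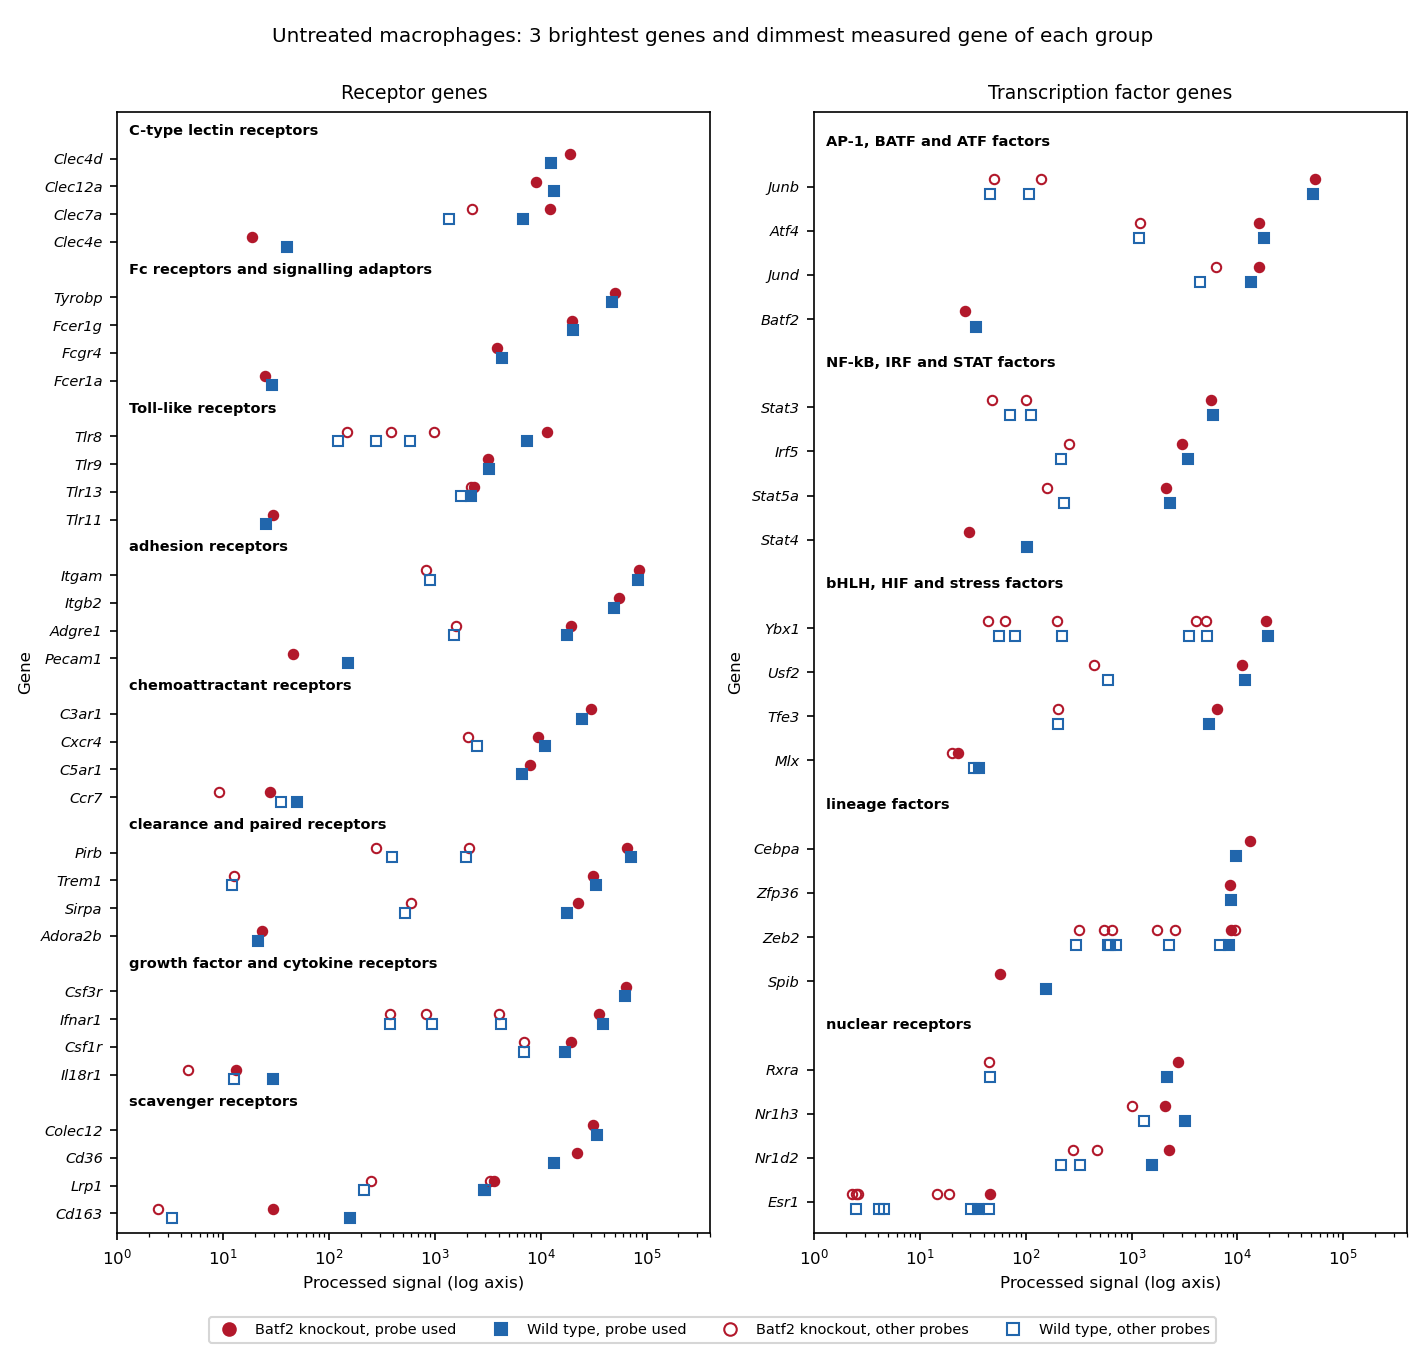
Processed signal (log axis) of the 3 brightest genes and the dimmest measured gene of each group of receptors (left) and transcription factors (right); circles are the knockout array and squares the wild-type array, filled marks the probe used and open marks other probes of the gene. Itgam, Itgb2, Pirb and Csf3r reach 49208 or more on both arrays, whereas Batf2, Tlr11 and Il18r1 lie below 35.

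How far these orders can be read was limited by the spread between probes. Within none of the 4 sets did any pair of neighbouring genes pass the rule for an ordered pair. Neighbours in sorted lists this long lie close together, so that result was nearly fixed in advance. The brightest gene of each set exceeded 54 lysosomal genes, 69 receptors, 62 secreted genes and 64 transcription factors by the distance of that rule. These genes were Sgsh, Itgam, Apoe and Junb, and the counts rest on the probe used. At the dimmest probe Sgsh had 170 on the knockout array and 185 on the wild-type array. On the same arrays Itgam had 816 and 899, and Junb 49.7 and 46.3. A separate list held 22 factors of other lineages. Of these, 14 were measured, with a median percentile of 44.0 on the knockout array and 48.3 on the wild-type array. Hnf4a, Neurod1, Neurog2 and Sox2 were well above background on neither array, and Nkx2-5, Tcf7 and Twist1 were among those measured on 1. Nanog, a factor of pluripotent cells, nevertheless had 109699 on the knockout array and 107554 on the wild-type array at 1 probe, and 43.1 and 27.5 at its other probe. Pax6, a factor of eye development, was dimmest at percentile 4.1.

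The labelled cell type was checked with marker lists. All 13 macrophage markers were measured, with a median percentile of 85.2, among them Itgam, Lyz2, Cd68, Trem2, Adgre1 and Csf1r, and with Mrc1, the mannose receptor, lowest at 55.2. Markers of granulocytes and their precursors reached a median percentile of 85.3 on the knockout array and 94.9 on the wild-type array, with S100a9, Ngp, S100a8, Camp and Ltf in the brightest 10%. Mast cell and basophil markers had a median percentile of 20.4 on the knockout array and 60.0 on the wild-type array. On the same arrays the medians were 38.9 and 36.7 for T and NK cells, 37.7 and 47.8 for B cells, 18.9 and 23.9 for dendritic cells, 31.1 and 40.0 for erythroid cells and megakaryocytes, and 54.8 and 52.4 for stromal and endothelial cells. Some markers of these lists nevertheless lay high at their brightest probe. Siglech, listed for dendritic cells, had 9271 on the knockout array and 11464 on the wild-type array, at percentile 95.9. Its lowest measured readings were 19.0 and 35.3 on the same arrays. Cd4 lay at percentile 87.1, Col1a2 at 85.5 and Col1a1 at 84.3, each with a far dimmer probe as well. Among the markers well above background on neither array were Cd3g, Ncr1, Hbb-bt, Mcpt4, Cdh5 and Lum.

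A few members stood at different places on the arrays. Of the 472 measured members 18 (3.81%, against 1.27% of all measured genes) had percentiles more than 20 points apart, and their place cannot be given from both arrays. They were Gaa among lysosomal genes, Saa3, Ccl8, F13a1, F7, Cfb and Cst7 among secreted genes, Tlr12, Pecam1, Ccr2, Kit, Marco and Cd163 among receptors, and Irf7, Stat4, Gfi1, Myb and Gata2 among transcription factors. Saa3, an acute phase protein, lay at percentile 23.8 on the knockout array and 82.9 on the wild-type array. Kit, the receptor of stem cell factor, lay at 40.2 on the knockout array and 76.2 on the wild-type array. Myb, a factor of blood progenitors, lay at 37.5 on the knockout array and 74.5 on the wild-type array. Of the 18 members 17 were brighter on the wild-type array and 1 on the knockout array. The latter was F7, coagulation factor VII, at 66.0 on the knockout array and 45.5 on the wild-type array. The 13 measured macrophage markers had a summed signal of 220669 on the knockout array and 199798 on the wild-type array. The 10 measured markers of granulocytes and their precursors had a summed signal of 84802.6 on the knockout array and 167812 on the wild-type array. The 6 measured mast cell and basophil markers summed to 410.3 on the knockout array and 4969.8 on the wild-type array. The part of these cell types in these places was not tested, and fewer cells of a type and less RNA per cell cannot be told apart in such bulk samples.

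The bright end of the order changed little after treatment. Of the 100 brightest probes, 95 were shared between the knockout array with R848 and the untreated knockout array, and 95 between the wild-type array with R848 and the untreated wild-type array. The median absolute log2 change of these probes was 0.05 in either genotype, against 0.32 over all probes, and 0 of them passed 2-fold, against 11.6% of all probes in knockout cells and 11.8% in wild-type cells. Ranked among genes with probes within 2-fold, 91 of the 100 brightest genes were shared in knockout cells and 87 in wild-type cells.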

How the data were processed

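Spot intensity in 1 colour (Cy3) was read by the authors with Agilent Feature Extraction 11.5.1.1, as file headers and the submitters' processing notes state. Per the file headers, this software had already removed background and a spatial trend from the processed signal used here, an intensity not scaled between arrays. A deposited table of the authors held the same intensity times 1 factor per array (4.06 knockout and 3.72 wild type, untreated, within 1% for 100.0% of 39374 spots), beside log2 ratios that were not used. The basis of these factors was not given in the sources used here.

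Here log2 of the processed signal was averaged over the spots of a probe, without 76 spots on the knockout array and 83 on the wild-type array marked as non-uniform or population outliers; no spot was saturated. A probe was well above background where at least 0.5 of its spots were marked so (71.4% of probes on the knockout array and 69.6% on the wild-type array). Names came from the deposited table and RefSeq gene tables (28867 probes by Entrez ID, 10230 by accession, 75 by symbol, 45 by synonym, and 1241 with the file's symbol); 16147 probes stayed unnamed. All 4 arrays lay on 1 slide. The number of arrays limits the precision, and no test was made. Columns of other samples: 0.

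Genes named were the 25 brightest, the 3 brightest, the dimmest and the unmeasured ones of each group, 12 regulators and cytokines including Batf2, members over 20 points apart and markers; others named were chosen after their values were seen, and some genes of the rule are not reported here. The members and lists were chosen with earlier results of these data known. Alternatives were the linear mean, marked spots kept, the median or dimmest probe, no filter, normexp (limma 3.58.1 in R 4.3.3, offset 50, on median spot signals because mean signals were not in the files used), the deposited table, each array alone and, chosen after seeing the data, genes with probes within 2-fold and ontology classes. Rankings were computed with pandas 2.3.3 and checked on simulated data.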

Additional observations from a re-analysis of the deposited data

How the results depend on the processing

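The medians and shares of the lists stayed within their 95% interval over genes under the linear mean of spots, with marked spots kept, with normexp, in the deposited table and on the knockout array alone. The 100 brightest genes of both arrays shared 93 to 98 under the alternatives that rank both arrays. Taken at the median over probes, the ribosomal median percentile was 97.0 and 14 of the 100 brightest genes were in any list, against 5 at the brightest probe. At the dimmest measured probe the median was 62.9 for transcription factors and 84.6 for lysosomal genes, 67.4% of ribosomal protein genes lay in the brightest 10%, and 13 of the 100 brightest genes were in any list. Without the filter on dim probes the medians were 78.6 for transcription factors and 96.9 for ribosomal proteins, and 60.6% of lysosomal genes lay in the brightest 10%. On the wild-type array alone the ribosomal median was 96.6. Among genes with probes within 2-fold, ranked among themselves, the median was 41.9 for transcription factors and 97.5 for ribosomal proteins, 25% of the 4 lysosomal genes and 95.2% of the 21 ribosomal protein genes lay in the brightest 10%, and 39 of the 100 brightest genes were in any list. With classes from ontology terms the medians were 59.3 for receptors, 54.1 for transcription factors, 77.5 for lysosomal and 49.1 for secreted genes, and the shares 10.0%, 8.52%, 24.2% and 15.9%. The last 2 settings were chosen after seeing the data; no factor of another lineage had probes within 2-fold. No paired analysis was possible because each group has 1 array. Length of the encoded protein, planned as a description of the members, was not analysed here. Signal over background limits the dimmest genes, since probes counted as well above background from a signal of 11.51 on the knockout array and 12.06 on the wild-type array.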
